A study of Mus musculus with 48 samples.

Results

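The 9 genes described here encode enzymes that cut the amyloid precursor protein or destroy amyloid beta, in the cerebral cortex of mice that inhaled urban nanoparticles. They were chosen by symbol as 4 subunits of gamma-secretase (*Psen2*, *Ncstn*, *Aph1a* and *Psenen*), both main alpha-secretases (*Adam10* and *Adam17*) and 3 proteases that degrade amyloid beta (*Mme*, *Ide* and *Ece1*). All 9 were present among the 18939 gene symbols of the APOE-TR table, the 27082 of the B6 table and the 16952 found in both, and all 9 had reads in every one of the 48 mice.

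Amyloid beta is released when beta-secretase and then gamma-secretase cut the amyloid precursor protein, whereas a cut by an alpha-secretase falls inside the amyloid beta stretch and prevents its formation. Gamma-secretase is a membrane complex in which a presenilin holds the active site, nicastrin (*Ncstn*) and APH1 form the scaffold, and PEN2 (*Psenen*) completes the complex and lets the presenilin mature. Once released, amyloid beta can be broken down by neprilysin (*Mme*), insulin-degrading enzyme (*Ide*) and endothelin-converting enzyme (*Ece1*), which are zinc metalloproteases.

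Polyadenylated RNA was sequenced from 4 mice in each of 12 groups. C57BL/6J mice (B6) inhaled nPM, a nano-sized fraction of urban particulate matter, or filtered air (control, Ct) for 5 h per day on 3 days per week over 8 weeks and are labelled 4 months old. APOE-TR mice, in which a human APOE3 (E3) or APOE4 (E4) allele replaces mouse *Apoe*, had the same daily scheme over 15 weeks and are labelled 6 months old. Females (F) and males (M) of each genotype formed separate control and nPM groups, so the groups are B6, E3 or E4, female or male, control or nPM. The exposures of B6 and APOE-TR mice were separate, used different batches of nPM according to the study, and are held in separate tables. Genotype, nPM batch, exposure length and age therefore cannot be told apart between them, and levels are compared only within a table. Replicates are individual mice, named by the animal number in their label.

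Values are the authors' CPM, which are read counts scaled to library size. Estimated depth over the listed genes was 17.8 to 31.3 M reads for APOE-TR libraries and 2.05 to 24.4 M reads for B6 libraries. *Xist* and *Ddx3y* followed the labelled sex in all mice, although *Xist* was 90.3 CPM in E3 female control 61 and 211 CPM in E3 female control F6, against 526 to 910 CPM in the other 14 APOE-TR females. No sample label has the number F6, and this mouse was assigned to E3 female controls from its column heading alone. Controls 61 and F6 stood apart from the other APOE-TR libraries: the 13 genes of the mitochondrial genome summed to 192000 and 145000 CPM there and to 48270 to 110200 CPM in the other 30 mice. Their microglia marker sums were 577 and 497 CPM, against 247 to 602 CPM in the others, and their oligodendrocyte marker sums were 7101 and 5437 CPM, against 2879 to 5675 CPM. All 7 markers of neurons, astrocytes, microglia and oligodendrocytes had reads in every mouse. Their neuron marker sums were 7055 and 6136 CPM, against 4552 to 5942 CPM, and their slopes of log2 level on log2 transcript length, fitted across genes in each mouse, were -0.56 and -0.40, against -0.22 to 0.145. The results that rest most on controls 61 and F6 are also given without them.

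The order of levels among the 9 genes was taken per length, as CPM divided by the median length of the gene's coding transcripts in GENCODE. In APOE-TR mice the median level per kb was highest for *Psenen*, at 16.02 CPM per kb, and for *Adam10*, at 13.9 CPM per kb. Next came *Ncstn* (11.6 CPM per kb), *Aph1a* (8.84), *Ece1* (7.79) and *Ide* (6.72). The lowest were *Psen2* (3.77 CPM per kb), *Mme* (3.49) and *Adam17* (2.78). *Adam10* lay above *Ncstn*, and *Ide* above *Psen2*, in all 32 mice, whereas the other neighbours in this order changed places in between 5 and 12 mice and are not separated beyond their spread. Within gamma-secretase the level per kb of *Psen2* was thus the lowest of the 4 subunits, and of the alpha-secretases *Adam10* was far above *Adam17*. In B6 mice the per-kb medians, in their own table, were again led by *Psenen* (11.9 CPM per kb) and *Adam10* (10.7 CPM per kb), and *Psen2* (1.16) lay above *Adam17* (0.441) in all 16 mice. *Psen2* in B6 mice rested on 3 to 108 estimated reads per mouse and *Adam17* on 5 to 220, so both are measured poorly there, while in APOE-TR mice no member had fewer than 156 reads.

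The genes lie on 7 chromosomes (mm10, APOE-TR table). *Psen2* lies on chromosome 1 from 180227004 to 180256301 and *Ncstn* on the same chromosome from 172066013 to 172082750. Of the other gamma-secretase genes, *Aph1a* lies on chromosome 3 from 95893921 to 95898593 and *Psenen* on chromosome 7 from 30561865 to 30563185. *Adam10* lies on chromosome 9 from 70678982 to 70780230 and *Adam17* on chromosome 12 from 21323509 to 21373633. *Mme* lies on chromosome 3 from 63295435 to 63383714, *Ide* on chromosome 19 from 37268741 to 37334545 and *Ece1* on chromosome 4 from 137862237 to 137965230. *Psen2*, *Ncstn*, *Aph1a*, *Psenen*, *Adam17* and *Ece1* overlap a gene on the opposite strand in part (267 bases shared with *Copa* for *Ncstn*, 327 with *U2af1l4* for *Psenen*). The kit was stranded, but the strand setting of the counting is not given in the sources used here. *Ide* overlaps the processed pseudogene *Rpl10-ps6* on its own strand.

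*Ncstn* and *Ece1* varied together across the 32 APOE-TR mice (Pearson r of log2 levels 0.93), and *Ncstn* and *Psenen* in the opposite sense (-0.92). Across the 16 B6 mice the values were 0.04 and 0.07. The part of the libraries' make-up in these relations was not tested. For these 3 genes, 300 bases around a start (RefSeq, GRCm38.p6, mostly upstream of it) are shown. Matches to a GC box (GGGCGG on either strand) are in capitals.
Ncstn (chr1:172082700-172082999, strand -): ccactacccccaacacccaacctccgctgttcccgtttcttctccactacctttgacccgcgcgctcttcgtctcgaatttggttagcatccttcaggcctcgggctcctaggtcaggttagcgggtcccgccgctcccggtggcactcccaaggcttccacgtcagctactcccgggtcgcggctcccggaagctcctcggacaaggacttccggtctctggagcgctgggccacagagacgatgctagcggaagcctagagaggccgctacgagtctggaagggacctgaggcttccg
Ece1 (chr4:137861987-137862286, strand +): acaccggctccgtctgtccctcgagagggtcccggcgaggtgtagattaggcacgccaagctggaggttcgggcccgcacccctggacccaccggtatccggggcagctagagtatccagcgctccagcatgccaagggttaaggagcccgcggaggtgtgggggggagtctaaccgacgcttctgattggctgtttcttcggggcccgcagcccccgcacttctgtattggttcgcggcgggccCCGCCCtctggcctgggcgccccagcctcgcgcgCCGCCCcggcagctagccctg
Psenen (chr7:30563155-30563454, strand -): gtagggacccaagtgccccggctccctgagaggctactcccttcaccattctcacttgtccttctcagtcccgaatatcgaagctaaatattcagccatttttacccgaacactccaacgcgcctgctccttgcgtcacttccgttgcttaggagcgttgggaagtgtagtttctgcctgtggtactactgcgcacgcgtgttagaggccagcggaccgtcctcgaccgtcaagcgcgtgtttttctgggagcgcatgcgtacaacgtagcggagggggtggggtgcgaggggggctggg
The table has 1 start for *Ncstn*, 2 for *Psenen* and 4 for *Ece1*, and 1 of each is shown. The *Ece1* promoter shown held 2 matches to the GC box. A second *Ece1* start, whose window (chr4:137862030-137862329) overlaps the one shown, held the same 2 sites, and the remaining starts held 0 and 1. The *Ncstn* promoter and both *Psenen* promoters held 0. A match was found in 35.7% of the 32851 promoters of that length. The core of the antioxidant response element (TGACNNNGC on either strand) was searched because particle exposure is an oxidant stress. It was found in 12.4% of promoters and in none of the promoters of these 3 genes. Among the other members, the *Aph1a* promoter held 1 match.

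**Figure D1:**
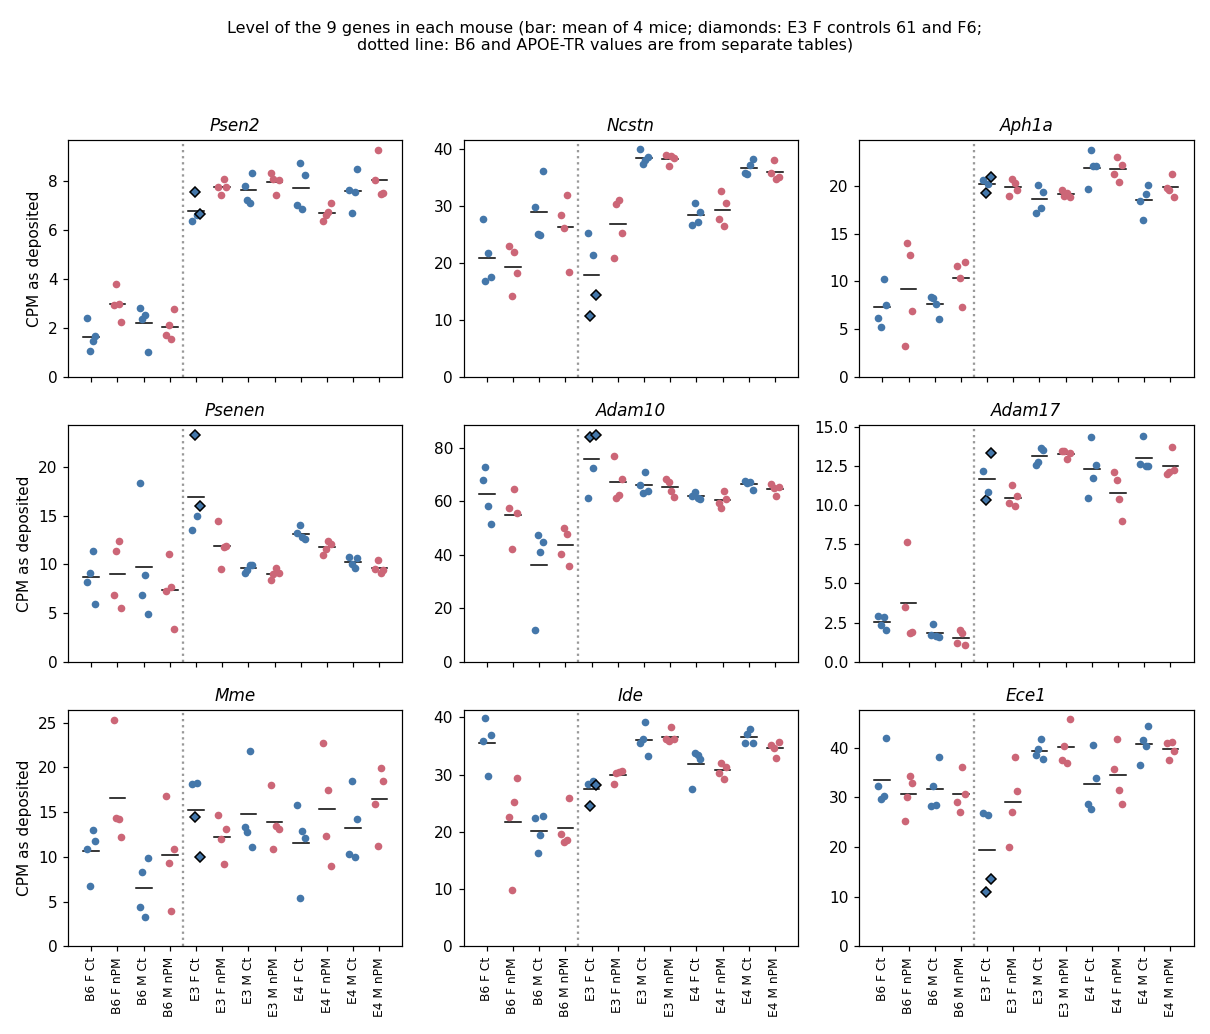
Deposited CPM (y axis, from 0) of each gene in each mouse by group (x axis), blue for control and red for nPM, with the mean of 4 mice as a bar; diamonds mark E3 female controls 61 and F6. Controls 61 and F6 lie lowest for *Ncstn* and *Ece1* among APOE-TR mice, and *Mme* is spread widely in every group.

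The first question was whether nPM changed the transcripts. Of the 9 genes, 0 passed the study's threshold (unadjusted p under 0.005) in the limma fit of all 48 mice, with terms for sex, genotype and nPM, where 1.49% of 11068 genes did. None reached an unadjusted p under 0.05 either, against 14.5% of all genes. The largest difference was that of *Mme*, at 0.26 on the log2 scale (95% interval -0.04 to 0.56, unadjusted p = 0.0906, adjusted p = 0.396 from limma). *Psenen* was next, at -0.19 (-0.41 to 0.03, adjusted p = 0.394 from limma). It was -0.14 (SE 0.107) without controls 61 and F6, -0.12 (SE 0.0939) without B6 male control 0, the library described with *Adam10*, and -0.09 (SE 0.0892) with the length slope as a covariate. The threshold was passed by 0 of the 9 and 0.334% of all genes without controls 61 and F6. The median absolute log2 difference was 0.11 over the 9 genes and 0.10 over all genes. *Adam10* had the value nearest to 0 (-0.00, interval -0.19 to 0.18).

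Within each sex and genotype (4 nPM mice against 4 controls), 0 of the 9 genes passed the same threshold. Among B6 mice it was passed by 1.17% of all genes in females and by 0.241% in males. The shares were 0.672% in E3 females and 0.154% in E3 males, and 0.260% in E4 females and 0.178% in E4 males. An unadjusted p under 0.05 was reached by 2 of the 9 in B6 females (*Psen2* and *Ide*), where 10.4% of all genes reached it, and by 3 of the 9 in E3 females (*Psen2*, *Ncstn* and *Psenen*), where 21.0% did. Without controls 61 and F6 it was reached in E3 females by 1 of the 9 (*Mme*), where 4.86% of all genes reached it, and the threshold was passed by 0 of the 9 and 0.522% of genes. In the other groups 0 of the 9 did, against 4.40% of all genes in B6 males, 2.25% in E3 males, 5.61% in E4 females and 4.18% in E4 males. Nor did voom call any of the 9 in any of the 16 comparisons made here, nor edgeR in the 11 that use APOE-TR mice alone, and DESeq2 called 1 in 1 of those 11 (*Ncstn*, between alleles in female controls).

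**Figure D2:**
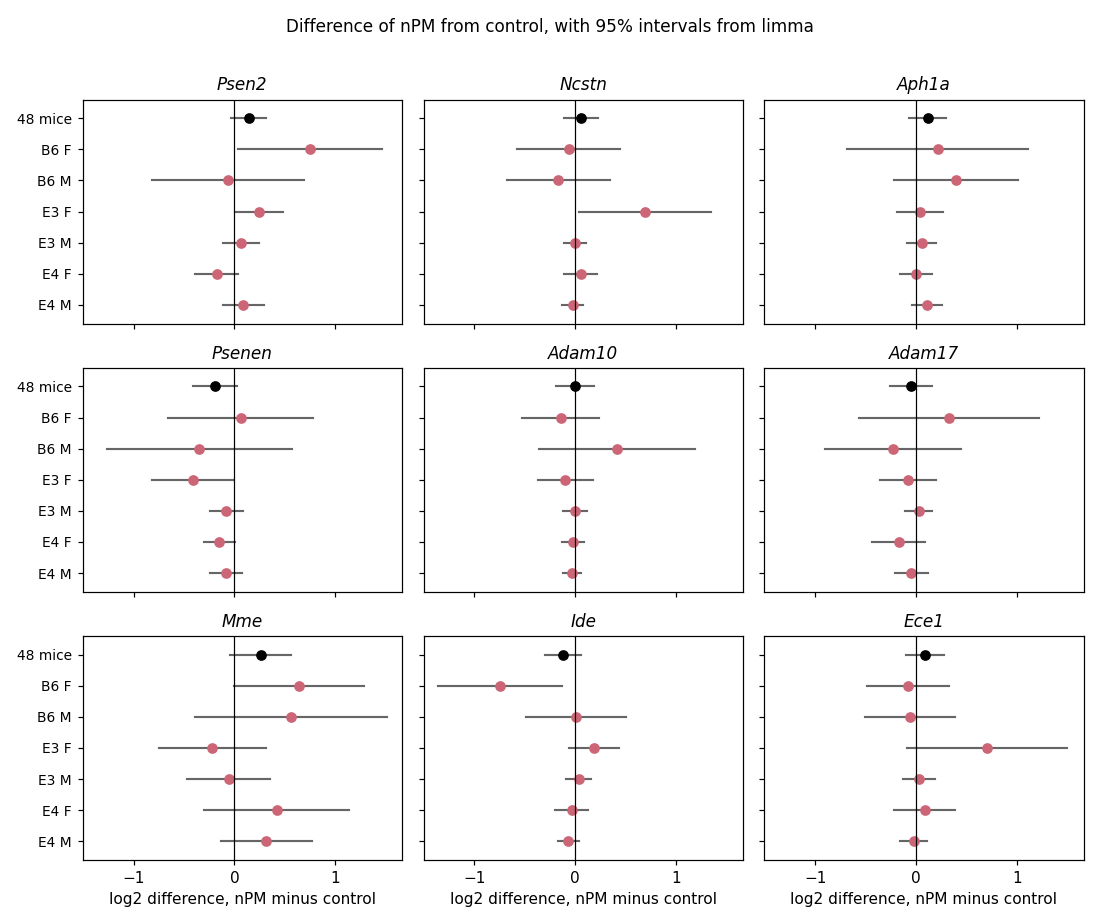
Log2 difference of nPM from control (x axis) for each gene over 48 mice (black) and in each sex and genotype (red, y axis), with 95% intervals from limma as lines. Most intervals include 0, and those of B6 mice are wide for most genes.

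*Psen2*, the presenilin among the 9 and so the catalytic subunit, had opposite signs with nPM in females of the APOE alleles. In E3 female controls 52, 61, 63 and F6 it was at 6.36, 7.55, 6.62 and 6.65 CPM, and in E3 female nPM mice 55, 59, 67 and 70 at 7.78, 7.44, 8.10 and 7.76 CPM. All 4 nPM mice lay above 3 of the 4 controls, and control 61 overlapped them. In E4 females the order was the other way round, with 7.01, 8.72, 6.87 and 8.24 CPM in controls 7, 21, 26 and 38 and 6.36, 6.603, 6.76 and 7.11 CPM in nPM mice 08, 23, 27 and 39, and the groups overlapped. The log2 difference with nPM was 0.24 (SE 0.104; 95% interval 0.01 to 0.48) in E3 females and -0.17 (SE 0.0964; -0.39 to 0.04) in E4 females, with adjusted p = 0.230 and 0.753 from limma. The difference between these responses, fitted over the 8 APOE-TR groups, was -0.41 (SE 0.115; -0.65 to -0.18) with an unadjusted p of 0.00128 and an adjusted p of 0.126 from limma, so it did not pass 5% FDR. Without controls 61 and F6 it was -0.43 (SE 0.130, adjusted p = 0.390 from limma). The E3 controls left, 52 and 63, had mitochondrial sums of 88260 and 100700 CPM, against 54090 to 76100 CPM in E4 female controls. The part of library make-up in the *Psen2* difference was not tested. The correlation of *Psen2* with the mitochondrial sum was -0.10 among APOE-TR females (n = 16, permutation p = 0.709). Over 32 APOE-TR mice it was -0.32 (adjusted permutation p = 0.195), with a Spearman rho of -0.49 (adjusted permutation p = 0.0228). With the per-mouse slope of level on transcript length as a covariate, the E4 female difference was -0.08 (SE 0.116) and the E3 female one 0.26 (SE 0.107). *Psen2* also ran against the sum of the 7 striatal neuron markers, with r = -0.46 (adjusted permutation p = 0.195) and rho = -0.64 (adjusted permutation p = 0.0364) among the 16 females, and r = -0.84 without E4 nPM mouse 39 and E3 control F6. That sum was 1220, 716, 1123 and 310 CPM in E3 controls 52, 61, 63 and F6 and 468 to 745 CPM in E3 nPM mice. In E4 it was 478 to 991 CPM in controls and 1555, 884, 1195 and 291 CPM in nPM mice 08, 23, 27 and 39. With its log2 value as a covariate the difference between the responses was -0.38 (SE 0.113, adjusted p = 0.0946 from limma), and the nPM differences were 0.25 (SE 0.117) in E3 and -0.16 (SE 0.0957) in E4 females.

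In males the same contrast for *Psen2* was 0.02 (interval -0.22 to 0.26), with nPM differences of 0.07 in E3 males and 0.09 in E4 males. B6 females showed the largest log2 difference of *Psen2*, 0.75 (SE 0.332; 0.04 to 1.47, adjusted p = 0.460 from limma). Controls 40 to 43 had 2.42, 1.06, 1.46 and 1.66 CPM (93, 36, 33 and 15 reads), and nPM mice 50 to 53 had 2.92, 3.78, 3.00 and 2.25 CPM (88, 108, 76 and 18 reads). The groups overlapped by a single pair, nPM mouse 53 with control 40 (exact permutation p = 0.0571, two-sided). B6 males gave -0.07 (-0.82 to 0.69).

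*Ncstn*, whose product holds the complex together and binds substrate, differed with nPM in E3 females by 0.69 (SE 0.288; 0.03 to 1.34, adjusted p = 0.230 from limma). Controls 52, 61, 63 and F6 had 25.3, 10.7, 21.4 and 14.5 CPM, and nPM mice 55, 59, 67 and 70 had 20.9, 30.4, 31.0 and 25.2 CPM. The means were 18.0 ± 6.57 CPM in controls and 26.9 ± 4.75 CPM with nPM (SD, n = 4), and the groups overlapped (exact permutation p = 0.143), and both lowest values were those of controls 61 and F6. Without these 2 mice the log2 difference was 0.21 (SE 0.182), and without control 61 alone it was 0.45. The intervals of the other groups included 0. They ran from -0.11 to 0.11 in E3 males, -0.13 to 0.08 in E4 males and -0.11 to 0.22 in E4 females, and they were wider in B6 females (-0.58 to 0.45) and B6 males (-0.68 to 0.34). In bulk tissue, fewer cells of a type and less RNA per cell cannot be told apart, for this gene and the others.

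*Psenen*, the smallest subunit, was lower with nPM in E4 females in every mouse. Controls 7, 21, 26 and 38 had 13.2, 14.0, 12.8 and 12.6 CPM, and nPM mice 08, 23, 27 and 39 had 11.01, 11.6, 12.3 and 12.1 CPM. The groups did not overlap (exact permutation p = 0.0286, the smallest possible, and 0.396 after adjustment over 90 such tests), as was the case for 3.48% of all genes. The log2 difference was small, -0.15 (SE 0.0705; -0.30 to 0.01, adjusted p = 0.753 from limma), and it was -0.08 (SE 0.0806) with the length slope as a covariate. It was -0.41 (SE 0.177) in E3 females, where control 61 had 23.3 CPM against 13.5, 14.97 and 16 CPM in the other controls and 14.4, 9.49, 11.8 and 11.9 CPM in nPM mice. That difference was -0.24 (SE 0.172) without controls 61 and F6, and with the length slope as a covariate it was -0.13 (SE 0.131). The signs were also negative in E3 males (-0.08) and E4 males (-0.08). When the 32 APOE-TR mice were fitted alone *Psenen* passed the threshold, at -0.18 (SE 0.0584, unadjusted p = 0.00367, adjusted p = 0.277 from limma), as did 0.689% of genes. Without controls 61 and F6 it was -0.13 (SE 0.0431, unadjusted p = 0.00662 and adjusted p = 0.854 from limma) and no longer passed. Nor did it pass in these 32 mice with the length slope as a covariate, at -0.09 (SE 0.0357, unadjusted p = 0.0160 and adjusted p = 0.999 from limma). In B6 mice the differences were 0.06 in females and -0.35 in males, with intervals reaching 0.78 and -1.27.

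*Aph1a*, the other scaffold subunit, was at 16.4 to 23.8 CPM in APOE-TR mice. Its nPM difference lay between -0.00 and 0.11 in the 4 APOE-TR groups, and the E4 male interval was -0.05 to 0.26. In B6 mice it ranged from 3.26 CPM in female nPM mouse 50 to 14.0 CPM in female nPM mouse 51, and the nPM difference was 0.21 (SE 0.418) in females and 0.39 (SE 0.286) in males.

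Among the alpha-secretases, *Adam10*, held to be the main constitutive alpha-secretase of neurons, had nPM intervals that included 0 in all 6 groups. In APOE-TR males it lay between 61.5 and 70.8 CPM, and the nPM intervals were -0.13 to 0.11 (E3) and -0.13 to 0.06 (E4). The E4 female interval was -0.14 to 0.08. In E3 females, controls 52, 61, 63 and F6 had 61.4, 84.2, 72.3 and 84.8 CPM and nPM mice 55, 59, 67 and 70 had 76.8, 61.3, 62.3 and 68.2 CPM, a difference of -0.10 (SE 0.120). Controls 61 and F6 were here the highest of all 32 APOE-TR mice, and without them the difference was 0.03 (SE 0.130). In B6 males the difference was 0.41 (SE 0.361), but control 0 stood at 11.8 CPM against 40.9 to 47.2 CPM in the other controls, and without it the difference was -0.06 (SE 0.201). That library also had the lowest neuron marker sum (2185 CPM, against 2798 to 6464 CPM in the other B6 mice) and the highest striatal neuron marker sum (1885 CPM, against 97.03 to 1742 CPM). Their part in the low *Adam10* value was not tested.

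*Adam17*, the protease that also sheds tumor necrosis factor, was at 8.98 to 14.4 CPM in APOE-TR mice. The nPM differences were -0.08 (SE 0.122) in E3 females (-0.11, SE 0.122, without controls 61 and F6), 0.02 (SE 0.0621) in E3 males, -0.17 (SE 0.119) in E4 females and -0.05 (SE 0.0736) in E4 males. Groups overlapped in all 4. In B6 females 1 nPM mouse, 51, had 7.65 CPM while the other 7 females had 1.85 to 3.52 CPM, and the difference was 0.32 (SE 0.414).

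Among the amyloid-degrading proteases, *Ide* was lower with nPM in B6 females. Controls 40 to 43 had 35.8, 39.8, 29.8 and 37.0 CPM, and nPM mice 50 to 53 had 22.7, 9.85, 25.2 and 29.5 CPM. No nPM mouse reached the lowest control, and 6.78% of all genes were separated in this way (exact permutation p = 0.0286, adjusted 0.396). The log2 difference was -0.75 (SE 0.286; -1.36 to -0.13), with adjusted p = 0.408 from limma. It rested in part on nPM mouse 51, without which it was -0.42 (SE 0.185, adjusted p = 0.408 from limma). In B6 males, at 16.4 to 25.9 CPM, the difference was 0.01 (interval -0.49 to 0.50), and the intervals were narrow in E3 males (-0.09 to 0.16), E4 males (-0.17 to 0.03) and E4 females (-0.20 to 0.12). In E3 females the difference was 0.19 (-0.06 to 0.44), and without controls 61 and F6 it was 0.08 (-0.15 to 0.32). The contrast of the nPM response between females and males, averaged over genotypes, was -0.21 for *Ide* (SE 0.138, adjusted p = 0.487 from limma).

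*Mme*, which encodes neprilysin, ranged from 9.98 to 21.8 CPM in APOE-TR males. E3 male controls 51, 55, 63 and 73 had 13.3, 12.8, 21.8 and 11.2 CPM and E4 male controls 3, 21, 32 and 91 had 10.3, 18.5, 9.98 and 14.3 CPM. The nPM differences were positive in B6 females (0.64, SE 0.299), B6 males (0.56, SE 0.443), E4 females (0.42, SE 0.328) and E4 males (0.32, SE 0.205) and negative in E3 females (-0.22, SE 0.233) and E3 males (-0.06, SE 0.189), and the 95% interval of each included 0. The E3 female difference without controls 61 and F6 was -0.55 (SE 0.177; -0.96 to -0.14, adjusted p = 0.908 from limma). The E3 controls left, 52 and 63, had striatal neuron marker sums of 1220 and 1123 CPM, against 468 to 745 CPM in the nPM mice. The part of that sum in the E3 female difference was not tested. Single mice weighed heavily: the difference was 0.41 in B6 females without nPM mouse 50, 0.28 in B6 males without nPM mouse 10, 0.10 in E4 females without control 21 and 0.19 in E4 males without control 32. Neprilysin is abundant in striatum, and *Mme* followed the sum of the 7 striatal neuron markers across the 32 APOE-TR mice (Pearson r = 0.83, Spearman rho = 0.87, permutation p = 1e-05 for each, the smallest that 100000 permutations can give, adjusted p = 6.6e-05 and 0.000141 over 99 relations). The relation held in females (r = 0.81, n = 16) and males (r = 0.92, n = 16), and without the 2 mice farthest from the median marker sum (r = 0.83). In the 16 B6 mice it was weak (r = 0.32, rho = 0.26, permutation p = 0.22 and 0.321). The marker sum itself ran from 291 to 1555 CPM in APOE-TR mice and from 97.03 to 1885 CPM in B6 mice. With its log2 value as a covariate the *Mme* difference was 0.34 (SE 0.292) in B6 females, 0.28 (SE 0.186) in E4 females and 0.12 (SE 0.0874) in E4 males, and 0.83 (SE 0.412) in B6 males.

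*Ece1*, which activates endothelins as well as degrading amyloid beta, resembled *Ncstn*. In E3 females, controls 52, 61, 63 and F6 had 26.9, 11.01, 26.4 and 13.6 CPM and nPM mice 55, 59, 67 and 70 had 20.1, 27.1, 38.1 and 31.3 CPM, a log2 difference of 0.70 (SE 0.349; -0.10 to 1.49, adjusted p = 0.234 from limma). Controls 61 and F6 were again the lowest of all APOE-TR mice, and without them the difference was 0.11 (SE 0.236). Elsewhere the nPM difference was between -0.08 and 0.08, with the narrowest interval in E4 males (-0.16 to 0.11).

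The second question was whether the APOE4 allele altered these genes. In the 48-mouse fit 0 of the 9 passed 5% FDR for E4 against E3, which 0.370% of all genes did, and 1 of the 9 had an unadjusted p under 0.05, against 14.5% of all genes. That gene was *Ece1*, at 0.27 (SE 0.115; 0.04 to 0.51, adjusted p = 0.298 from limma), and without E3 female controls 61 and F6 it was 0.11 (SE 0.0823), where 0 of the 9 and 0.271% of all genes passed 5% FDR. Within each sex and exposure 0 of the 9 passed 5% FDR, where 0.232% of all genes did in female controls, 0.145% in female nPM mice, 0.439% in male controls and 0.499% in male nPM mice.

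Female controls showed the largest allele differences. E4 controls 7, 21, 26 and 38 had 26.8, 30.6, 27.2 and 29.0 CPM of *Ncstn*, all above the 4 E3 controls, and 28.8, 27.6, 40.6 and 33.8 CPM of *Ece1*, again all above. The log2 difference of E4 from E3 was 0.79 (SE 0.264, adjusted p = 0.0791 from limma) for *Ncstn*, 0.89 (SE 0.321, adjusted p = 0.0851) for *Ece1* and 0.28 (SE 0.117, adjusted p = 0.112) for *Ide*. These 3 of 9 genes with an unadjusted p under 0.05 stand beside 41.1% of all genes in the same comparison, and the 2 of 9 without overlap beside 29.3%, so the members' shares were near those of all genes. DESeq2 on recovered reads called *Ncstn* (0.72, SE 0.282, adjusted p = 0.0447), as it did 25% of genes, and leaving out E3 control 52 brought limma's calls to 3 (*Ncstn*, *Adam10* and *Ece1*), where 38.9% of all genes passed. Without E3 controls 61 and F6, *Ncstn* differed by 0.30 (SE 0.0936, adjusted p = 0.102 from limma), *Ece1* by 0.30 (SE 0.150) and *Ide* by 0.17 (SE 0.0997). There 0 of the 9 passed 5% FDR, beside 1.87% of all genes. The E3 controls left, 52 and 63, still had mitochondrial sums of 88260 and 100700 CPM, against 54090 to 76100 CPM in E4 female controls. The part of this shift in the allele differences was not tested. Between nPM-exposed females *Ncstn*, *Ece1* and *Ide* differed by 0.16, 0.28 and 0.06, all with overlapping groups.

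**Figure D3:**
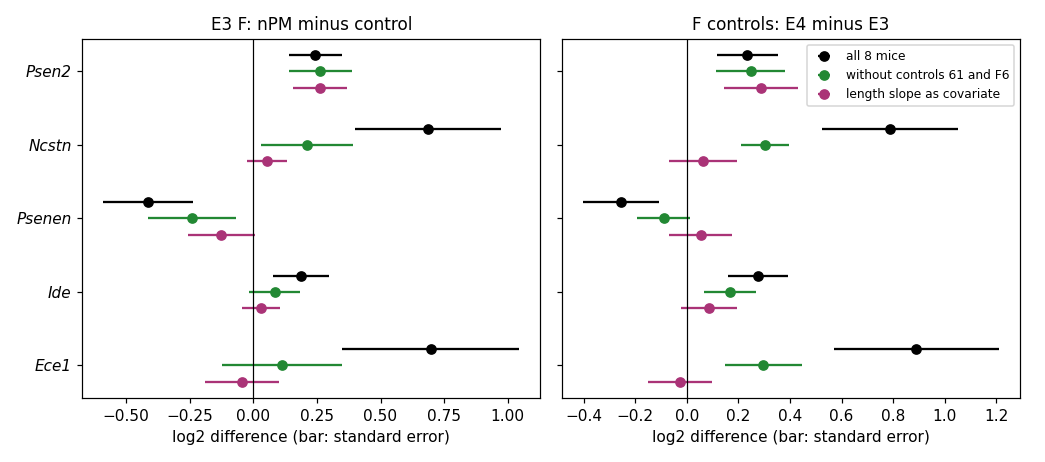
Log2 differences (x axis, bars are standard errors) of 5 genes (y axis) for nPM against control in E3 females (left) and for E4 against E3 in female controls (right), with all 8 mice, without E3 controls 61 and F6, and with the slope of level on transcript length as a covariate. *Ncstn* and *Ece1* shrink towards 0 in the latter 2 fits, and *Psen2* stays between 0.23 and 0.29.

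In female nPM mice, *Psen2* was lower with E4 in every mouse (6.36 to 7.11 CPM, against 7.44 to 8.10 CPM with E3), a difference of -0.18 (SE 0.0849; -0.37 to 0.01, adjusted p = 0.531 from limma) where 5.93% of genes were separated. With the log2 striatal marker sum as a covariate, which was higher in 3 of these 4 E4 mice than in any of the 4 E3 mice, it was -0.16 (SE 0.0928). Of the 9 genes, 0 had an unadjusted p under 0.05 there, against 9.12% of all genes. In male nPM mice 1 of the 9 was separated, *Ide*, at 32.97 to 35.6 CPM with E4 and 35.9 to 38.2 CPM with E3 (-0.08, SE 0.0442, adjusted p = 0.607 from limma), beside 5.66% of genes, and in male controls 0 of the 9, beside 3.60%. An unadjusted p under 0.05 was reached by 0 of the 9 in male controls and in male nPM mice, against 5.81% and 9.90% of genes. In males the allele intervals were -0.18 to 0.05 for *Ncstn* and -0.10 to 0.19 for *Ece1* in controls. The groups of the nPM comparisons in B6 males, E3 females, E3 males and E4 males overlapped for all 9 genes on the deposited scale, and 2.24%, 6.61%, 1.55% and 2.54% of all genes were separated there.

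Whether the nPM response depended on the allele was tested over the 8 APOE-TR groups. At 5% FDR, 0 of the 9 passed in both sexes together, in females and in males, where 0%, 0.0188% and 0% of all genes did. An unadjusted p under 0.05 was seen for 2 of the 9 over both sexes (*Psen2*, -0.20, SE 0.0813, and *Ide*, -0.16, SE 0.0700), against 10.6% of all genes. In females it was seen for 3 (*Psen2*, *Ncstn* and *Ide*), against 29.4%, and in males for 0, against 0.877%. For *Ncstn* the difference in females was -0.63 (SE 0.229, adjusted p = 0.126 from limma) and, without controls 61 and F6, -0.15 (SE 0.135). Without these mice *Ide* was -0.11 over both sexes (SE 0.0619) and -0.11 in females (SE 0.0923), neither with an unadjusted p under 0.05. The genes under 0.05 were then *Psen2* and *Mme*, beside 6.3% of all genes over both sexes and 7.82% in females. *Mme* was 0.68 (SE 0.293, adjusted p = 0.751 from limma) and 0.98 (SE 0.437, adjusted p = 0.605 from limma). The part of the striatal marker sum in these *Mme* values was not tested. For females against males over the 12 groups, 0 of the 9 passed 5% FDR, as did 0% of all genes, and 0 had an unadjusted p under 0.05, against 13.8%; the largest was *Ncstn* at 0.27 (SE 0.147, adjusted p = 0.413 from limma).

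Several members varied with the mitochondrial sum across the APOE-TR mice. The Pearson correlation over 32 mice was -0.94 for *Ncstn*, -0.93 for *Ece1*, -0.79 for *Ide* and 0.89 for *Psenen* (Spearman rho -0.78, -0.61, -0.67 and 0.76, permutation p = 1e-05 for each r, the smallest that 100000 permutations can give, and 6.6e-05 adjusted). Without controls 61 and F6, which are farthest from the median sum, the values were -0.85, -0.82, -0.71 and 0.79. Within the 16 females they were -0.94, -0.92, -0.79 and 0.89, and within the 16 males, whose sums spanned only 48270 to 56980 CPM, they were -0.23, 0.20, 0.13 and 0.03. *Ncstn* thus had 37.7 CPM as its male median, 26.97 CPM as its female median and 10.7 CPM in control 61, the library with the highest mitochondrial sum. *Adam10* had r = 0.91 within females (0.77 without controls 61 and F6) and 0.35 within males. *Ncstn*, *Ece1* and *Psenen* also followed the length slope over 32 mice, with r = 0.97, 0.96 and -0.92. Within the 16 females these values were 0.97, 0.95 and -0.90, and within the 16 males 0.06, 0.17 and -0.26. In the 16 B6 mice they were -0.49, 0.32 and -0.57. These relations were 99 in all, and the part of the libraries' make-up in them was not tested.

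**Figure D4:**
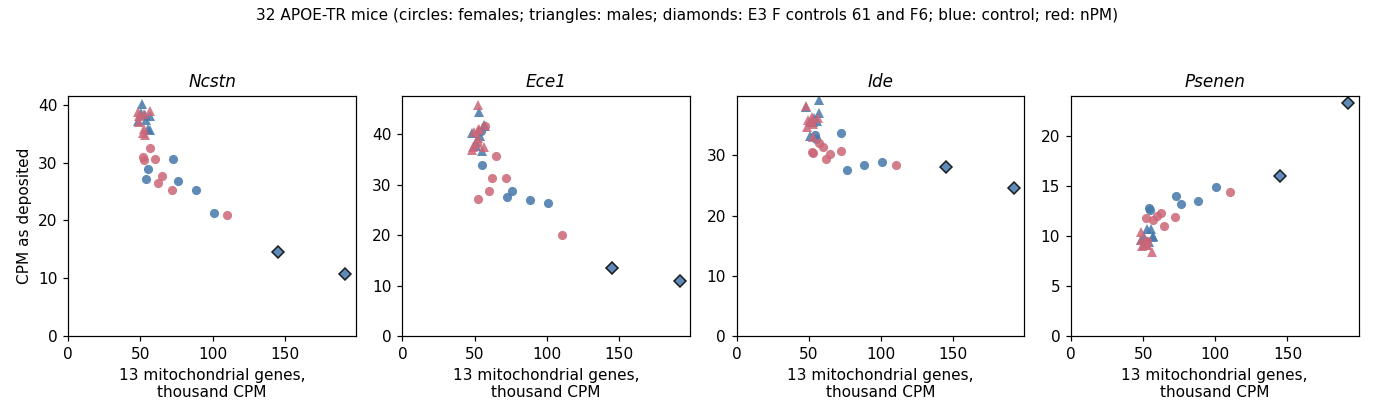
Deposited CPM of *Ncstn*, *Ece1*, *Ide* and *Psenen* (y axes, from 0) against the sum of the 13 mitochondrial genes in kCPM (x axis) in 32 APOE-TR mice. *Ncstn*, *Ece1* and *Ide* fall and *Psenen* rises towards the right, where E3 female controls 61 and F6 (diamonds) lie, and males (triangles) cluster at the left.

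The sexes of the APOE-TR mice also differed in some of these genes. *Ncstn* was at 34.8 to 40.1 CPM in the 16 males and 10.7 to 32.6 CPM in the 16 females, without overlap, and it was the only one of the 9 so separated, as were 6.70% of 15958 genes. The mean log2 difference of males from females was 0.58 for *Ncstn*, 0.53 for *Ece1* and 0.26 for *Ide*, and -0.44 for *Psenen*; without controls 61 and F6 it was 0.44, 0.37, 0.23 and -0.36. Males had 22.4 to 31.3 M reads and females 17.8 to 22.3 M reads. The sexes were also separated by the length slope, at 0.06 to 0.145 in males and -0.56 to 0.03 in females, and by the endothelial marker sum, at 108 to 166 CPM in males and 57.5 to 100.3 CPM in females. Sex, depth and these 2 measures cannot be told apart here, and no test was made. In B6 mice *Ncstn* also had the higher median in males (27.3 CPM, against 19.99 CPM in females), while *Ide* had the lower (19.5 CPM, against 29.7 CPM), with overlapping ranges for both.

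The other genes of the pathway, 52 in 5 lists, were counted in the same fits: paralogs and modulators of gamma-secretase, partners of the alpha-secretases, beta-secretases with the APP family and its sorting proteins, other proteases reported to cleave amyloid beta, and other secretase substrates with Notch targets. In none of the 16 comparisons, with all mice, was any of the 52 called. For nPM over 48 mice, 41 were tested and 2 were higher and 2 lower at an unadjusted p under 0.05, beside 14.5% of all genes, with a median of 0.05 against -0.01 over all genes. In E3 females 51 were tested, 3 were higher and 2 lower with nPM at that level, beside 21.0% of all genes, and the median was 0.10 against -0.00. The counts without controls 61 and F6 were 0 higher and 1 lower, beside 4.86%, and the median was 0.04. For E4 against E3 in female controls 13 were higher and 7 lower, with a median of 0.06. Of the 11 genes of the beta-secretase and APP list, 7 were higher and 2 lower, with a median of 0.46, all mice included. These shares stand beside the 41.1% given above for all genes. Without E3 controls 61 and F6, 8 were higher and 4 lower, beside 25.2% of all genes, and 1 passed 5% FDR, beside 1.87%. It was *Gga3*, a sorting adaptor, at 0.46 (SE 0.0903, adjusted p = 0.0449 from limma). The E3 controls left, 52 and 63, had higher mitochondrial sums than any E4 female control, and the part of this was not tested. For the difference of the nPM response between alleles in females 3 were higher and 14 lower, with a median of -0.08, beside the 29.4% of all genes, and without controls 61 and F6 there were 2 higher and 3 lower, beside 7.82%.

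The genes whose level was most like that of each member were sought among the 15958 genes with reads in all 32 APOE-TR mice, by Pearson r of log2 levels. For *Ncstn* they were *Aplp2* (r = 0.98), an APP homolog and itself a secretase substrate, and *Fkbp15* (r = 0.98). For *Psen2* the second most alike was *App* itself (r = 0.61), after *Tns4* (r = 0.65, as few as 4 reads in a mouse). *Ece1* was followed by *Tet3* and *Dnmt3a* (r = 0.98 and 0.97), *Ide* by *Usp7* and *Atp2a2* (0.94 and 0.93), *Psenen* by *Setd3* and *Oaz2* (0.96 and 0.95), and *Adam10* by *Dnm1l* and *Cct8* (0.94 and 0.94). *Aph1a* was nearest to *Tmem115* and *Trabd* (0.78 and 0.77) and *Adam17* to *Rab11fip1* and *Egflam* (0.78 and 0.77). *Mme* was nearest to *Gm10754* (r = 0.90) and to *Gpr52* (r = 0.90), a receptor known from striatal neurons. The mice share library depth, sex and the libraries that stood apart, and in the 16 B6 mice these pairs had lower values (*Mme* with *Gpr52* had no B6 value), for example -0.59 for *Ncstn* with *Aplp2*, 0.16 for *Psen2* with *App* and 0.20 for *Ece1* with *Tet3*. Among the members themselves, *Ncstn* and *Ece1* had r = 0.93 over 32 APOE-TR mice (0.79 without controls 61 and F6) and 0.04 over the B6 mice, and *Ncstn* and *Psenen* had -0.92 (-0.86) and 0.07.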

How the data were processed

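RNA of the cerebral cortex of 48 mice was extracted with TRIzol and RNeasy and sequenced from stranded TruSeq libraries of polyadenylated RNA. The authors aligned reads to mm10 with TopHat2 2.0.8b and quantified them in Partek, per the labels and processing notes, and deposited CPM (counts scaled to library size) in 1 table of 32 APOE-TR mice and 1 of 16 B6 mice. The step that scaled counts to CPM is not given in the sources used here; values were whole multiples of the lowest value in a mouse (within 0.05 of a step, below 20 steps) for 94.6% to 95.5% of low values in APOE-TR mice and 72.2% to 88% in B6 mice, so reads were recovered for the former and only estimated for the latter. Depths are estimates from these values, and counting error is large for low genes of B6 mice.

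From these values, TMM-scaled CPM were computed with edgeR 4.0.16 and log2(CPM + 0.5) was fitted with limma 3.58.1 (trend, R 4.3.3), keeping genes with at least 1 estimated read in every mouse of the fit. Fold changes on this scale understate those of low genes. Fits over 48 mice had terms for sex, genotype and nPM, fits of 4 against 4 mice used those mice, and differences between responses used 8 or 12 groups. Following the study, nPM was called at an unadjusted p under 0.005, and other contrasts at 5% FDR (Benjamini-Hochberg over all genes). Single genes were also compared by exact two-sided permutation of 70 labelings on log2(deposited CPM + 0.5), for which 0.0286 is the smallest p. Alternatives were other scaling, filters, pseudocounts and tools (voom, edgeR, DESeq2 1.42.0), single mice left out and, chosen after seeing the data, controls 61 and F6 left out and covariates. Scripts were tested on simulated data. All 9 members are named, and for each the 2 genes with the highest Pearson r over 32 mice. Members and lists were chosen with earlier results of these data known. The mitochondrial genes were not used in B6 mice. Each replicate is a mouse, and 1 E3 female control sample has no column of its own number.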

Additional observations from a re-analysis of the deposited data

Results flagged for a closer look

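In groups of 4 mice, 6 of 108 gene and group combinations had a mouse far from the other 3 by Dixon's gap ratio at the 95% level, and chance gives about 1 in 20. *Adam17* was 14.44 CPM in E4 male control 21, against 12.47 to 12.6 CPM in the other 3, 13.7 CPM in E4 male nPM mouse 65, against 11.98 to 12.22 CPM, and 2.389 CPM in B6 male control 2, against 1.6 to 1.69 CPM. *Mme* was 25.31 CPM in B6 female nPM mouse 50, against 12.17 to 14.36 CPM. *Ide* was 27.56 CPM in E4 female control 7, against 32.72 to 33.71 CPM, and 28.38 CPM in E3 female nPM mouse 55, against 30.33 to 30.69 CPM.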

How the results depend on the processing

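No member was called in 189 of 195 alternative settings of the 16 comparisons, nor in 79 of 80 that left out 1 mouse. The exceptions were nPM with APOE-TR mice alone, with 1 call (*Psenen*), and nPM with the variance shared over 12 groups, with 2 calls in B6 females (*Psen2* and *Ide*, beside 10.7% of all genes) and 2 in E3 females (*Ncstn* and *Ece1*, beside 13.8%). For E4 against E3 in female controls there was 1 call with DESeq2 on recovered reads. The variance shared over the 8 APOE-TR groups gave 7 (beside 55.3% of all genes). With the striatal marker sum as a covariate there were 2, and with 1 mouse left out 0 to 3. The share of all genes with that covariate is not given here, so its 2 calls are not read as particular to the members. All other comparisons gave 0 with 1 mouse left out. Signs turned in 5 of 491 single values: with the length slope as a covariate, *Ece1* was -0.0435 for nPM in E3 females and -0.0257 between alleles in female controls, *Psenen* was 0.0531 there and *Mme* was -0.0957 for nPM in E4 females; *Adam10* for nPM in B6 males ranged from -0.059 without control 0 to 0.605 without control 2. The cause was not tested. On recovered reads, edgeR called 33 genes and DESeq2 4105 in female controls, against 38 by limma, and 122 and 463 for nPM in E3 females, against 110. Count tools were run only on the 11 comparisons within APOE-TR mice, since reads of B6 mice are estimates. No paired analysis was possible because no groups compared share 2 or more replicate numbers. In B6 mice, depth limits *Psen2* and *Adam17*.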
